A study of Bos taurus with 12 samples.

Results

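The genes encoding the protein subunits of the mitochondrial ribosome were compared between epithelium and stroma of the mammary gland of prepartum dry cows. Members were all genes of the Bovine GeneChip whose probe sets carry a single symbol of MRPL (large subunit) or MRPS (small subunit) followed by a digit. They numbered 67 of 9155 genes with a single symbol, 43 of the large and 24 of the small subunit, on 84 probe sets. Of these, 51 members (33 large, 18 small) were bright enough to be tested, and the other 16 are described apart. The symbols MRPS12 and MRPS18C were not among the probe sets with a single symbol and are not analysed here.

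Mitochondrial ribosomes translate the few messages encoded by mitochondrial DNA, all of which specify subunits of the respiratory chain and ATP synthase. Their RNAs come from the mitochondrial genome, while every protein of both subunits is encoded in the nucleus, made in the cytosol and imported. Some of these proteins descend from the bacterial ribosome, and others were added during the evolution of mitochondria. Mammary epithelium prepares before calving for milk secretion, which has a high demand for ATP.

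Biopsies were taken from 6 Holstein cows 3 weeks before calving, and explants from every animal spent 2 h in culture with hydrocortisone, insulin and BrdU, a thymidine analogue that marks DNA synthesis. Frozen sections were then laser captured for intralobular epithelium and for intralobular stroma. Within a sample, lysates of 2 slides were pooled for epithelium and of 4 slides for stroma. Amplified RNA was hybridized to 1 array per tissue and cow (12 arrays). The labels give lactation number 3 for cow 1, 2 for cow 2 and 1 for the other 4 cows, whereas the methods call the animals multiparous. Both tissues had the same culture, so that no uncultured or hormone-free tissue is compared, and the concentration of the hormones differs between the labels and the methods and is not settled here. The stroma was captured away from vessels and evident immune cells but remained a mixture of cell types.

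The values are log2 RMA intensities, which ran from 0.78 to 14.4, with array medians between 2.95 and 3.08. All 9 markers of luminal epithelium passed the test towards epithelium (mean of their values 8.66 in epithelium and 5.20 in stroma), and all 8 fibroblast markers passed it towards stroma (4.65 and 10.01). Of the markers of other cells, both tested endothelial markers passed the test towards stroma (3 further ones were too dim), as did 1 of 4 for myoepithelium and 0 of 4 for macrophages. The control RNAs added to each sample averaged 4.88 ± 1.21 (SD, n = 6 arrays) in epithelium and 7.66 ± 2.99 in stroma. They were highest in the stroma of cows 4, 5 and 6, at 9.07, 10.99 and 10.39, against 4.15 to 7.10 in the stroma of cows 1 to 3. The 3′ probe set of GAPDH exceeded the 5′ probe set by 2.67 ± 0.96 in epithelium and 3.35 ± 0.90 in stroma. The part of these measures of array quality in the results below was not tested. In captures of many cells, fewer cells of a type and less RNA per cell cannot be told apart.

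Of 51 tested members, 3 were expressed at a greater level in epithelium and 0 at a greater level in stroma (limma within cows, Benjamini-Hochberg adjusted p under 0.05), and 48 did not pass the test. Over all 5244 tested genes, 4.54% passed towards epithelium and 4.46% towards stroma. The 3 members, MRPL34, MRPL39 and MRPS22, make up 5.88% of the tested members, near the background share. At an unadjusted p under 0.05 in limma, 9 of the 51 members went towards epithelium and 0 of the 51 towards stroma, against 14.6% and 8.35% of all genes. The tissue mean was lower in stroma for 37 members (72.5%), whereas it was lower in stroma for 59.9% of all genes. The median difference, stroma minus epithelium, was -0.47 on the log2 scale over the members and -0.20 over all genes, and it was -0.30 and -0.02 after the arrays were centred on the median of tested probe sets.

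The filter on brightness bears on these counts. It kept probe sets by their mean over both tissues, with a lowest mean of 3.56. The stromal mean of 9 tested members (17.6%) and the epithelial mean of 1, MRPS16 (1.96%), lay under that level, against 6.29% and 7.11% of all tested genes. Those 9 are MRPL10, MRPL19, MRPL21, MRPL37, MRPL38, MRPS22, MRPS24, MRPS27 and MRPS35, and they entered the test through their epithelial values, so the counts and medians over the tested members are descriptions and not support for a direction.

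**Figure D1:**
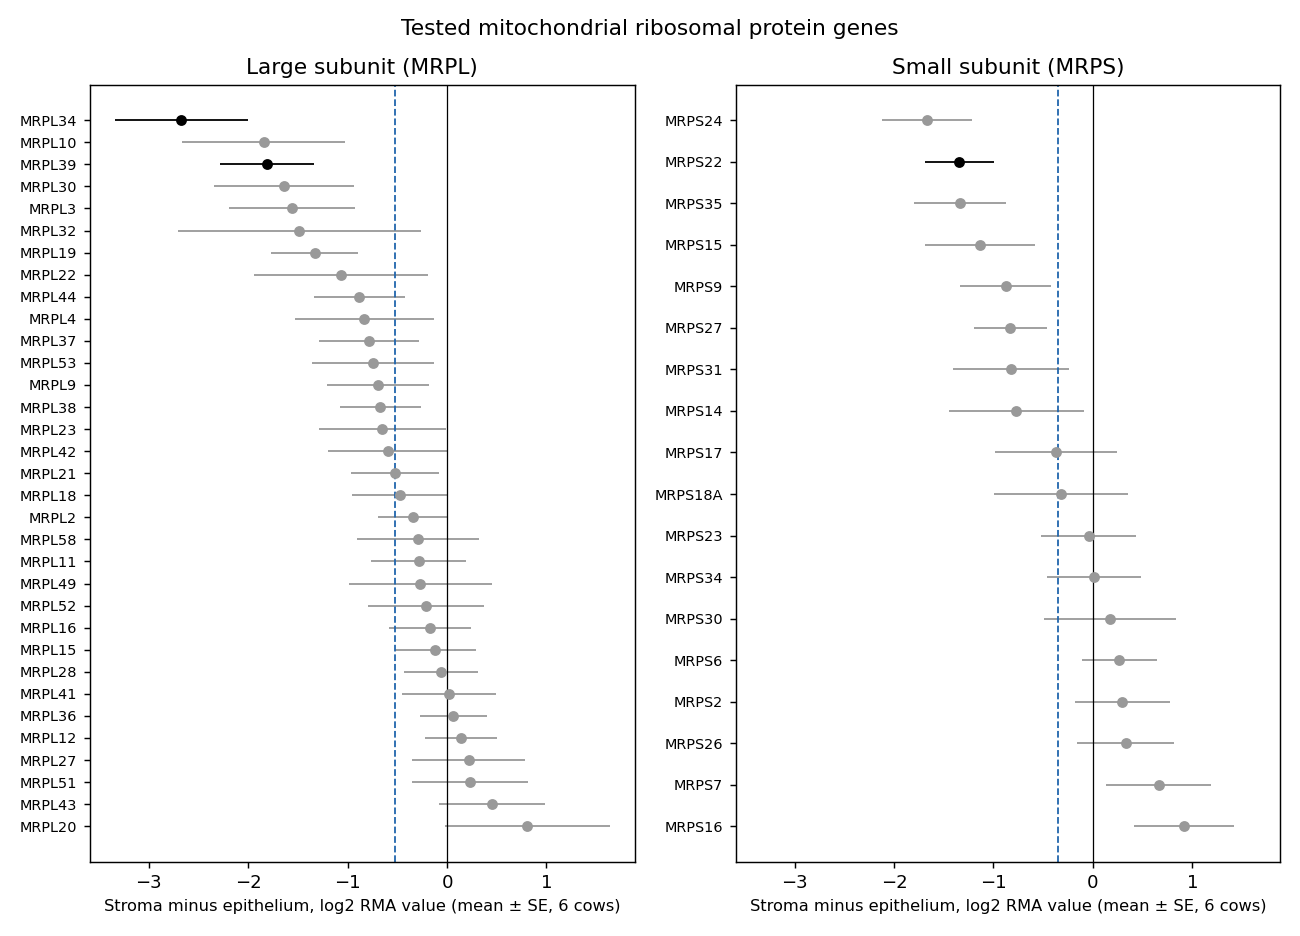
Difference between stroma and epithelium of each tested mitochondrial ribosomal protein gene (x axis, log2 RMA value, mean ± SE of the within-cow fit, 6 cows), with genes of the large subunit in the left panel and of the small subunit in the right panel. Differences ran from -2.67 (MRPL34) to 0.81 (MRPL20) in the large subunit and from -1.67 (MRPS24) to 0.92 (MRPS16) in the small subunit.

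In the large subunit, 2 of 33 tested genes passed the test towards epithelium (6.06%, against 4.54% of all genes), 0 towards stroma and 31 in neither direction. The median difference of the 33 was -0.52, with the middle of the distribution between -0.88 and -0.12 (quartiles). The mean was lower in stroma for 26 of 33 (78.8%), against 59.9% of all genes. After centring it was lower for 23 of 33 (69.7%), against 51.1% of all genes. MRPL34, a small protein of the subunit with a bacterial homolog, had the largest difference of all members. Its epithelial values in cows 1 to 6 were 7.08, 5.39, 6.35, 5.67, 7.40 and 6.34, and its stromal values were 6.10, 5.59, 2.62, 3.06, 2.65 and 2.18. The stroma of cows 1 and 2 thus lay within the epithelial range, and that of the other 4 cows lay between 2.18 and 3.06, around or below the array medians. The mean was 6.37 ± 0.78 (SD, n = 6) in epithelium and 3.70 ± 1.69 in stroma, a difference of -2.67 ± 0.67 (SE; limma adjusted p = 0.0406), or 6.38-fold, a fold that depends on the background level of the dim arrays. The call was lost when cow 1, 3, 4, 5 or 6 was left out (adjusted p at most 0.106), without a filter (0.0980) and with probe sets above the median on at least 8 arrays (0.0513).

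MRPL39, a protein specific to mitochondria whose sequence resembles threonyl-tRNA synthetase, fell by 1.81 ± 0.47 (SE) from epithelium to stroma. Its epithelial values in cows 1 to 6 were 5.61, 7.33, 6.19, 6.98, 7.40 and 7.03, and its stromal values were 3.93, 6.25, 5.33, 3.63, 4.26 and 6.25. Stroma was lower in all 6 cows, though the stromal values of cows 2 and 6 exceeded the epithelial values of cows 1 and 3. MRPL39 was the only tested gene of the large subunit that was lower in the stroma of every cow, a pattern found in 9.57% of all genes. The expression was 3.51-fold greater in epithelium (limma adjusted p = 0.0456). Leaving out any cow ended the call, with adjusted p between 0.0570 and 0.121, and so did centring (0.0609), an intensity trend and robust prior (0.0566), the absence of a filter (0.0766) and probe sets above the median on at least 8 arrays (0.0520). The other 2 probe sets of MRPL39 had means of 2.70 and 2.26 over the 12 arrays, too dim to be tested. In the fit of all probe sets, the first of them went the other way, with a difference of 0.81 (limma adjusted p = 0.669). Its stromal values reached 6.08 in cow 4 and 4.51 in cow 6, and its epithelial value reached 4.73 in cow 5. The second differed by -0.05. The call of MRPL39 thus rests on 1 probe set.

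Other genes of the large subunit with small p-values did not pass the threshold. MRPL19, a bacterial-type protein at the interface between the subunits, had a lowest, median and highest value of 3.59, 4.76 and 6.32 in epithelium and of 2.70, 3.65 and 3.96 in stroma (difference -1.33 ± 0.44, limma adjusted p = 0.0993). The ranges overlapped, and stroma was lower in 5 cows, the values of cow 5 being 3.59 and 3.60. MRPL3, a core protein near the peptidyl transferase centre, was among the brightest members. Its epithelial values lay close together, between 7.45 and 8.66. Its stromal values were 6.82, 7.82, 8.07, 3.79, 7.47 and 4.22 in cows 1 to 6, so that the difference of -1.56 ± 0.64 (limma adjusted p = 0.181) came mostly from cows 4 and 6.

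MRPL30, a bacterial-type protein, had its wider spread in epithelium. Its stromal values lay between 2.97 and 4.03, while its epithelial values were 4.22, 2.89, 7.30, 5.29, 7.96 and 3.73, with cows 3 and 5 far above the others (difference -1.64 ± 0.70, limma adjusted p = 0.201). MRPL10 and MRPL12 form the stalk, the flexible arm of the large subunit that recruits translation factors. MRPL10, which anchors the stalk, ranged from 3.35 to 8.15 in epithelium (median 4.57) and from 1.50 to 5.42 in stroma (median 3.11), with a difference of -1.85 ± 0.82 (adjusted p = 0.218). MRPL12, the mobile part of the stalk, ranged from 3.09 to 4.54 in epithelium and from 3.13 to 4.73 in stroma, and its difference was 0.14 ± 0.36 (adjusted p = 0.857). The difference between these 2 genes was not tested.

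The 3 genes of the large subunit with the largest differences towards stroma were MRPL20, MRPL43 and MRPL51, none of which passed the test. MRPL20, which in bacteria is needed for early assembly of the large subunit, differed by 0.81 ± 0.83 (adjusted p = 0.605), with epithelial values from 2.29 to 6.73 and stromal values from 3.68 to 7.80. The difference became -0.13 when cow 5 was left out, whose values were 2.29 in epithelium and 7.80 in stroma. A second tested probe set of MRPL20 also had a positive difference, 0.67. MRPL43 and MRPL51 are proteins specific to mitochondria. MRPL43 differed by 0.45 ± 0.53 (adjusted p = 0.653) and became -0.07 without cow 3, and MRPL51 differed by 0.23 ± 0.58 (adjusted p = 0.852) and became -0.29 without cow 2 and -0.04 without cow 3. No direction is read for these genes.

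In the small subunit, 1 of 18 tested genes passed the test towards epithelium (5.56%, against 4.54% of all genes), 0 towards stroma and 17 in neither direction. The median difference was -0.35 (quartiles -0.87 and 0.24). The mean was lower in stroma for 11 of 18 genes (61.1%), near the 59.9% of all genes. The median was -0.13 over all 24 genes, without the filter on brightness, and -0.17 over the 18 after centring. MRPS22, a protein specific to mitochondria whose loss in humans causes mitochondrial disease, fell by 1.34 ± 0.35 (SE), or 2.54-fold, from epithelium to stroma (limma adjusted p = 0.0459). Epithelial arrays of cows 1 to 6 gave 5.25, 3.94, 4.87, 5.10, 4.09 and 3.53, and the stromal arrays gave 3.48, 2.93, 3.16, 4.60, 2.22 and 2.34. Stroma was lower in all 6 cows, and the stroma of cow 4 lay within the epithelial range. Leaving out any cow ended the call, with adjusted p between 0.0596 and 0.129, as did the fit without cow as a block (0.0922), cow as a random effect (0.0649), a further quantile normalization (0.0537) and centring (0.0789). The stromal mean of 3.12 ± 0.87 lay close to the array medians, so the fold depends on the background.

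MRPS24, a bacterial-type protein at the entry of the messenger channel, had the largest difference of the small subunit. Epithelial values had a minimum, median and maximum of 3.09, 4.48 and 6.83, and stromal values of 1.85, 2.72 and 4.69. Stroma was lower in 5 cows and slightly higher in cow 1 (4.69 against 4.59). The difference of -1.67 ± 0.45 missed the threshold (limma adjusted p = 0.0529), and it passed when cow 1 was left out (0.0373), with an intensity trend and robust prior (0.0479) and with probe sets averaged per gene (0.0480). MRPS27, a pentatricopeptide repeat protein, had the lower stromal value in all 6 cows, with differences from -1.57 in cow 3 to -0.08 in cow 4. It ranged from 3.07 to 4.87 in epithelium and from 2.99 to 3.68 in stroma (difference -0.83 ± 0.36, adjusted p = 0.211).

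MRPS15 and MRPS9, proteins with bacterial homologs, were brighter. MRPS15 ranged from 6.53 to 8.00 in epithelium. Its stromal values were 5.18, 7.38, 5.12, 7.55, 4.87 and 6.90, low in cows 1, 3 and 5 and within the epithelial range in cows 2, 4 and 6 (difference -1.13 ± 0.55, adjusted p = 0.256). MRPS9 ranged from 5.51 to 7.66 in epithelium and from 4.78 to 6.49 in stroma (difference -0.88 ± 0.46, adjusted p = 0.287).

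Towards stroma, the largest difference of all members was that of MRPS16, a bacterial-type protein whose loss in humans impairs mitochondrial translation. Its epithelial values were 3.36, 3.41, 2.72, 2.77, 2.90 and 3.78, around the array medians, and its stromal values were 3.87, 3.54, 3.25, 4.77, 5.86 and 3.17. Stroma was higher in 5 of 6 cows, most in cows 4 and 5 (difference 0.92 ± 0.51, adjusted p = 0.313). MRPS7, which binds the ribosomal RNA of the head, was also higher in stroma in 5 of 6 cows, with a difference of 0.66 ± 0.53 (adjusted p = 0.490). MRPS26, a protein specific to mitochondria, differed by 0.33 ± 0.49 (adjusted p = 0.731) and was higher in the stroma of every cow but cow 5. Of the 51 members, 0 were higher in the stroma of all 6 cows, against 6.96% of all genes.

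**Figure D2:**
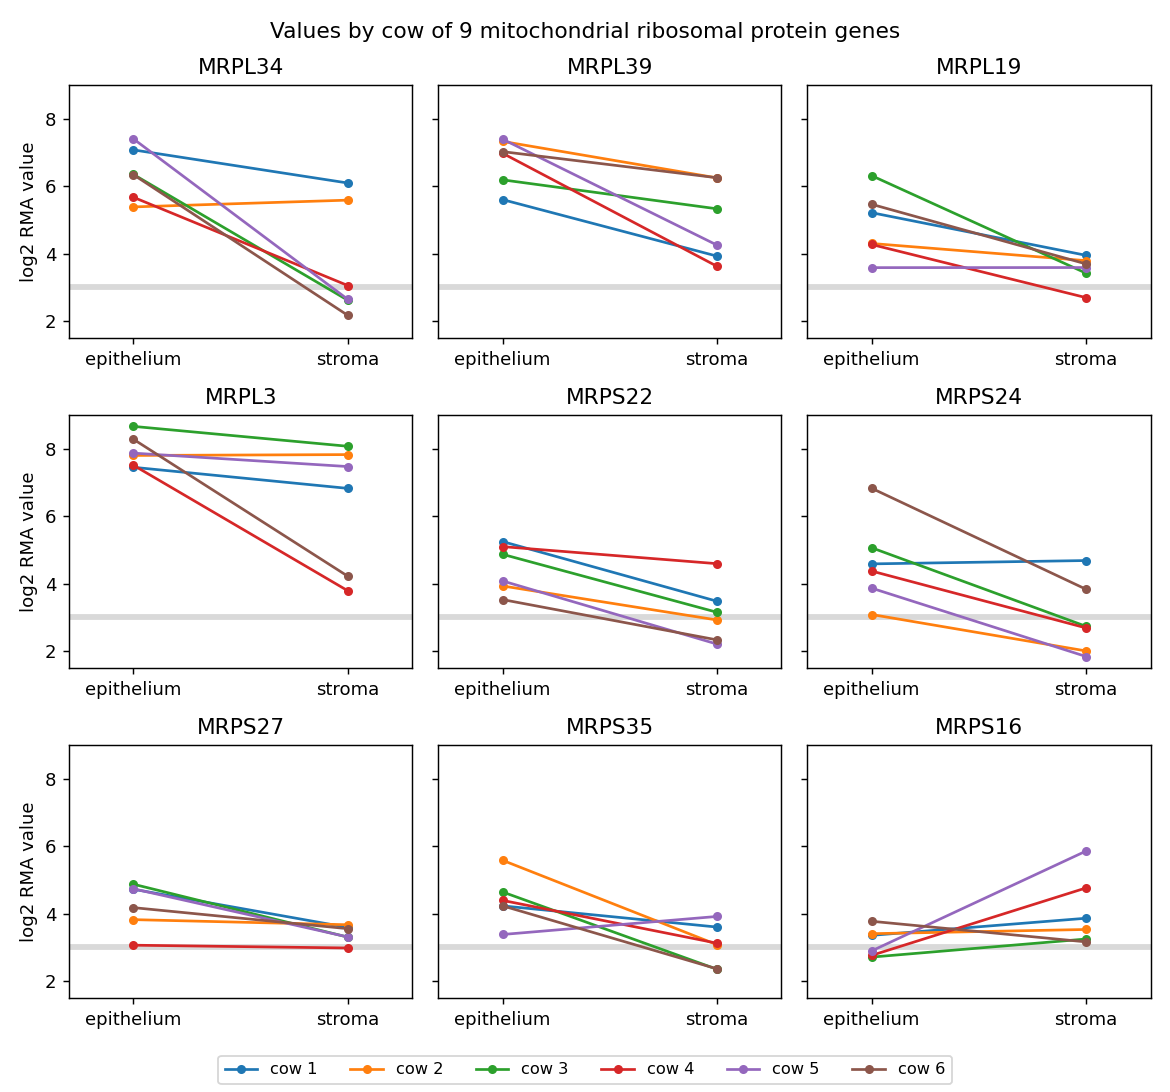
Values (log2 RMA, y axis) in epithelium and stroma of each cow (1 line per cow) for 9 mitochondrial ribosomal protein genes, with the grey band marking the array medians between 2.95 and 3.08. MRPL39, MRPS22 and MRPS27 slope down in all 6 cows, MRPL34 is high in the stroma of cows 1 and 2 only, and MRPS16 slopes up in 5 of 6 cows.

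Some proteins of the mitochondrial ribosome have paralogs or sit in the other subunit than their symbol says. MRPS18A and MRPS30 carry names of the small subunit but are built into the large one. MRPS18A ranged from 3.46 to 6.75 in epithelium and from 4.42 to 5.81 in stroma (difference -0.32 ± 0.68, adjusted p = 0.816), and the difference turned to 0.08 without cow 3 or cow 5. MRPS30 ranged from 2.53 to 6.02 in epithelium and from 3.62 to 7.01 in stroma (difference 0.17 ± 0.67, adjusted p = 0.906), and the difference turned to -0.15 without cow 4 and -0.44 without cow 6. With both genes counted in the large subunit, its median difference was -0.47 and that of the small subunit was -0.57. The order of the 2 medians thus depended on how these 2 genes were placed.

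Within each cow, the median difference over the large subunit was -0.62, -0.33, -0.94, -0.30, -0.12 and -0.51 in cows 1 to 6. It was below 0 in all 6 cows and below the median over all genes in 5 of them, cow 5 being the exception. For the small subunit it was -0.50, -0.27, -0.96, 0.11, -0.19 and -0.02, below 0 in 5 cows and below the median over all genes in cows 1, 2 and 3 only. The large subunit had the lower median in cows 1, 2, 4 and 6 and the small subunit in cows 3 and 5, and the difference between subunits was not tested. Over all genes the medians lay between -0.26 and -0.03. The share of members that were lower in stroma was 66.7% in cows 1 and 3, 60.8% in cows 2 and 4, 52.9% in cow 5 and 58.8% in cow 6, against 51.1% to 58.3% of all genes. In cow 5 the share was lower than that of all genes, 56.0%.

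**Figure D3:**
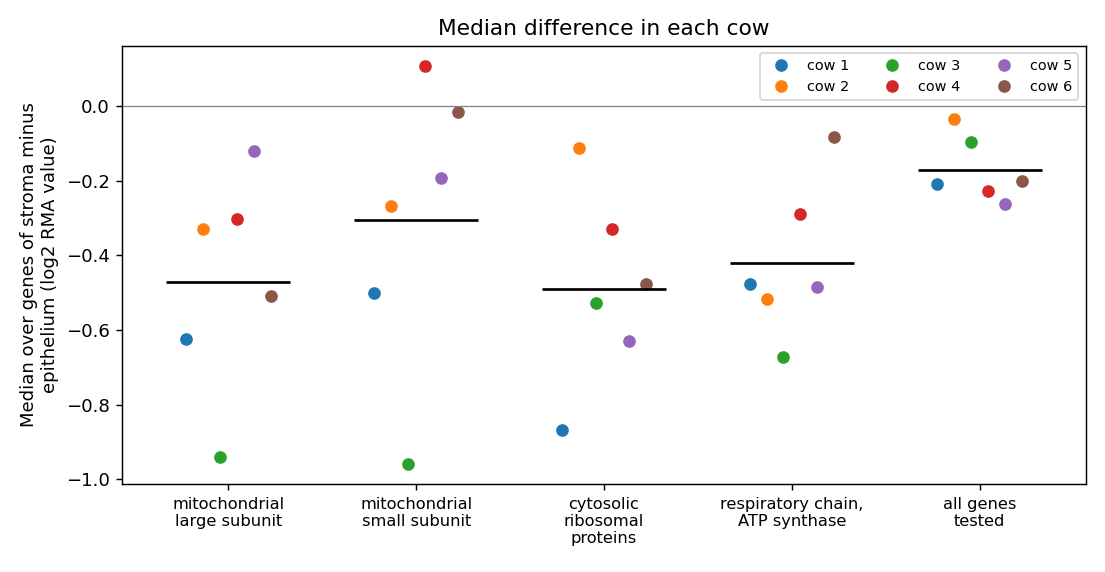
Median over genes of the difference between stroma and epithelium (y axis, log2 RMA value) in each cow (points) with the mean over the 6 cows (bar), for both mitochondrial subunits, cytosolic ribosomal proteins, respiratory chain with ATP synthase subunits, and all tested genes. Medians of the large subunit ran from -0.94 in cow 3 to -0.12 in cow 5, and the only median above 0 was that of the small subunit in cow 4, 0.11.

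Averaged over the tested genes of an array, the large subunit was at 5.29 ± 0.20 (SD, n = 6 arrays) in epithelium and 4.68 ± 0.12 in stroma, with the stromal array lower in each of the 6 cows. For the small subunit these means were 5.13 ± 0.09 and 4.75 ± 0.21, again with stroma lower in each cow. The median difference over all genes was also below 0 in all 6 cows. Both means include the members that entered the test through their epithelial values, so they are descriptions as well. In cows 1 to 3, whose stroma had the lower added control RNA, the median difference was -0.66 for the large and -0.63 for the small subunit. With these 3 cows alone, a choice made after the values were seen, 0 members passed the test. Among them, cow 3 had the lowest medians, -0.94 and -0.96. The medians over all genes were -0.21, -0.03 and -0.10 in cows 1 to 3. Cows 1 and 2 also had the higher lactation numbers, and the part of control RNA or lactation number was not tested.

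No tested member separated the tissues completely, since the epithelial and stromal ranges of all 51 members overlapped. Among all genes, 2.96% had every epithelial value above every stromal value, and 3.39% the reverse. The spread within a tissue was large: the median SD of members over 6 arrays was 0.77 in epithelium and 1.05 in stroma, close to that of all genes (0.74 and 0.99). The SD was larger in stroma for 30 of 51 members (58.8%), and for 68.3% of all genes. The stromal values of 8 members spanned more than 4 on the log2 scale, 15.7% of members against 19.3% of all genes. The widest was MRPL32, a protein matured by a mitochondrial protease, with stromal values of 3.34, 8.02, 2.83, 5.89, 1.75 and 1.92 in cows 1 to 6 and epithelial values between 3.45 and 6.93. MRPL53 had its stromal extremes in cow 3 (8.62) and cow 5 (2.66), and MRPL23, at the exit of the nascent chain tunnel, in cow 5 (10.95) and cow 2 (5.87). The cows with extreme stromal values thus differed from member to member.

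Values below the median of their array made up 4.25% of the members' epithelial values and 13.1% of their stromal values. Among all genes the corresponding shares were 5.89% and 8.32%. The share was higher in the stroma of the members in all 6 cows, from 5.88% in cow 1 to 17.6% in cow 5, and in the stroma of all genes in 4 of 6 cows. The members include the 9 that entered the test through their epithelial values. Their stromal share is therefore a description and not support for a direction. The members did not vary together among the 12 arrays. The median correlation between pairs of members, after removal of tissue means, was -0.01, against 0.34 between pairs of cytosolic ribosomal proteins, 0.04 for subunits of the respiratory chain and 0.01 for all genes (n = 12 arrays, which share cow, capture and amplification; given as a description).

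**Figure D4:**
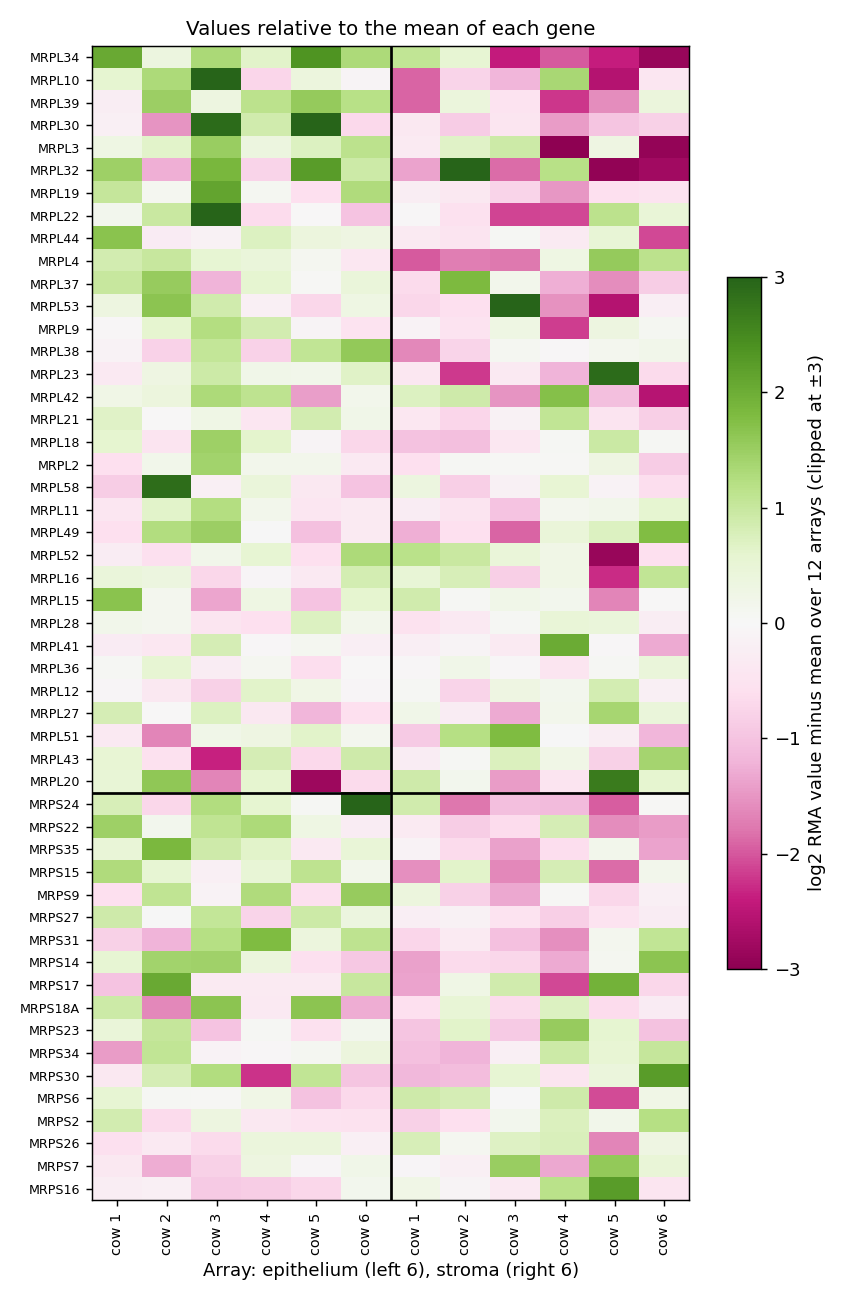
Values of the 51 tested members on the 12 arrays (columns; cows 1 to 6 in epithelium at left, in stroma at right) relative to the mean of each gene (colour, log2 RMA value, clipped at ±3), with the large subunit above the line and the small subunit below and each sorted by difference. High and low values of stroma fall in different cows for different genes, and no column is low throughout.

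More than 1 probe set on the array represented 14 members, and 3 members had more than 1 that was bright enough to be tested. The 2 probe sets of MRPS35, a protein specific to mitochondria, disagreed. The brighter one ranged from 3.39 to 5.58 in epithelium and from 2.36 to 3.92 in stroma (difference -1.34 ± 0.47, limma adjusted p = 0.120), and it passed the test only without cow 5 (0.0452). The other one differed by 1.17 ± 0.58 in the opposite direction (adjusted p = 0.266). No direction is therefore read for MRPS35. The 2 probe sets of MRPS14, a protein of the head of the small subunit, had differences of -0.77 (adjusted p = 0.537) and 0.01 (adjusted p = 0.996).

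The 16 members that were too dim were MRPL13, MRPL14, MRPL24, MRPL35, MRPL45, MRPL46, MRPL48, MRPL50, MRPL55, MRPL57, MRPS5, MRPS11, MRPS18B, MRPS25, MRPS28 and MRPS36. Their brightest probe sets had means between 2.52 and 3.54, and 9 of them lay under every array median. When all probe sets were fitted, 0 of the 16 passed the adjusted threshold in limma. Of all 9155 genes in that fit, 200 passed towards epithelium and 225 towards stroma. At an unadjusted p under 0.05 there were 3 of the 16 (MRPL45, MRPL46 and MRPL48, all with lower means in stroma). The share of all genes at that level in this fit is not given here, so the 3 are a description. A second probe set of MRPL46, with a mean of 2.24, differed by 0.13 in the opposite direction. MRPS18B, a paralog of MRPS18A, averaged 2.87 in epithelium and 2.42 in stroma, and MRPS36, since assigned to a dehydrogenase complex of the citric acid cycle, averaged 2.71 and 2.82. These means were below the array medians in both tissues, though single arrays were brighter. MRPS18B was at 3.92 in the epithelium and 3.79 in the stroma of cow 2. MRPS36 was at 4.18 in the epithelium of cow 4 and 6.51 in the stroma of cow 3. No direction is read for either gene.

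Members with a bacterial homolog and members specific to mitochondria, a division made after values had been seen, are given side by side without a test. Of 31 tested genes with a bacterial homolog, 1 passed the test (MRPL34), 23 had the lower mean in stroma and the median difference was -0.47. Of 20 genes specific to mitochondria, 2 passed (MRPL39 and MRPS22), 14 had the lower mean in stroma and the median was -0.44. The shares that passed were 3.23% and 10%, against 4.54% of all genes towards epithelium. The shares with the lower mean in stroma were 74.2% and 70%, against 59.9% of all genes. With so few calls, no contrast between the classes is read.

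Proteins that work with the mitochondrial ribosome are given list by list, and in no list did every gene pass the test. Over all genes, 4.54% passed it towards epithelium and 4.46% towards stroma. Of 5 tested mitochondrial ribosomal proteins with other symbols, 0 passed the test and the median difference was -0.07 (0.10 after centring). The RNA-binding protein PTCD3 differed by -0.72 (adjusted p = 0.460) and the GTP-binding protein DAP3 by 0.63 (adjusted p = 0.634). Of 7 tested translation factors (13 on the array), 0 passed the test and the median was -0.02 (0.15 after centring), with MTFMT, which formylates the initiator methionyl-tRNA, at -1.11 (adjusted p = 0.346) and LETM1, a protein of the inner membrane, at -0.40 (adjusted p = 0.621).

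Among 12 tested factors of ribosome assembly and ribosomal RNA modification (23 on the array), 1 passed the test in each direction. Of all genes, 4.54% passed it towards epithelium and 4.46% towards stroma. The median over the 12 factors was 0.04 (0.21 after centring). MALSU1, an assembly factor that binds the large subunit, averaged 6.26 ± 1.15 (SD, n = 6) in epithelium and 3.89 ± 0.58 in stroma, a difference of -2.37 ± 0.55 (SE; limma adjusted p = 0.0303). It was lower in the stroma of 5 of 6 cows, and it no longer passed when cow 1, 2, 4 or 6 was left out (adjusted p at most 0.0972). MTERF3, a regulator of mitochondrial transcription and ribosome assembly, went the other way, with 6.20 ± 0.98 in epithelium and 7.86 ± 1.37 in stroma. It was 3.16-fold greater in stroma and higher there in all 6 cows (difference 1.66 ± 0.42, limma adjusted p = 0.0437), and it no longer passed when cow 1, 2, 4, 5 or 6 was left out (adjusted p at most 0.106).

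Of 8 tested mitochondrial aminoacyl-tRNA synthetases (15 on the array), 1 passed the test, towards epithelium, as did 4.54% of all genes. The median over the 8 was -0.53. MARS2, which charges the mitochondrial methionine tRNA, averaged 6.01 ± 1.14 in epithelium and 3.96 ± 1.62 in stroma, with stroma lower in every cow (difference -2.05 ± 0.53, limma adjusted p = 0.0448). It failed the threshold when cow 1, 2, 4 or 6 was left out (adjusted p at most 0.122) and after centring (0.0660). VARS2, the enzyme for valine, differed by -0.76 (adjusted p = 0.297). Of 6 tested genes for the expression of mitochondrial DNA, 0 passed, with HSD17B10, a subunit of mitochondrial RNase P, at -1.37 (adjusted p = 0.0768) and the exoribonuclease PNPT1 at -0.49 (adjusted p = 0.638). Of 3 tested nuclear regulators of mitochondrial genes, 0 passed, with the coactivator PPRC1 at -1.06 (adjusted p = 0.166) and the transcription factor MYC at 0.42 (adjusted p = 0.511).

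The cytosolic ribosomal proteins and the respiratory chain were set beside the members as the ribosome of the cytosol and as the complexes to which mitochondrial ribosomes supply subunits. Of 64 tested cytosolic ribosomal proteins, 0 passed the adjusted threshold in limma, against 4.54% of all genes towards epithelium and 4.46% towards stroma. At an unadjusted p under 0.05 there were 7, all towards epithelium, against 14.6% of all genes. The mean was lower in stroma for 62 of the 64 (96.9%), against 59.9% of all genes. Of the 64, 30 were lower in the stroma of all 6 cows, against 9.57% of all genes. Their median difference was -0.53, close to that of the members. Their median SD within a tissue was 0.27 in epithelium and 0.35 in stroma, lower than the 0.77 and 1.05 of the members. In 11 of them every epithelial value exceeded every stromal value, against 2.96% of all genes. Of 75 tested nuclear subunits of the respiratory chain and ATP synthase, 60 had the lower mean in stroma (80%), and the median difference was -0.49. Stroma was lower in all 6 cows for 12 of the 75, and 2 had every epithelial value above every stromal value. In this list 1 gene passed the test (1.33%), towards epithelium, against 4.54% of all genes. That gene was ATP5MC2, a membrane ring subunit of ATP synthase, with a difference of -1.67 ± 0.42 (limma adjusted p = 0.0417). It no longer passed when cow 1, 2, 3, 4 or 6 was left out (adjusted p at most 0.113) or after centring (0.0731). Whether these lists differ from the members was not tested.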

How the data were processed

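RNA of laser-captured epithelium and stroma of 6 cows was measured on 12 Bovine GeneChip arrays. The deposited values are log2 intensities, which the authors obtained by RMA with quantile normalization over a larger set of arrays that includes these 12. RMA forces the arrays to like distributions, so differences are relative to the other genes. Probe sets were named through the platform annotation. The gene ID gave the same symbol in the reference annotation for all 84 probe sets of members. Sequences of promoters and proteins were not used here.

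The study's detection calls were not used here, and the brightest 42% of probe sets other than controls (10086 of 24016) by their mean over the 12 arrays were tested in place of the detected ones. The differences were fitted in R 4.3.3 with limma 3.58.1 (tables were handled with data.table, version 1.17.8). The model held tissue and, as a fixed block, cow, and the two-sided p for tissue was adjusted (Benjamini-Hochberg) over every tested probe set, with a threshold of 0.05. The study's own fit had tissue alone. The pairs come from the design, in which both tissues of an animal carry the same replicate number. The deviations of paired arrays from the tissue means correlated at 0.20, 0.03, 0.03, 0.08, 0.05 and 0.09 in cows 1 to 6, and the epithelium of cows 2 and 3 correlated best with the stroma of cow 5, that of the other 4 cows with their own. A gene was represented by its tested probe set with the highest mean.

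The text names members past the threshold, the 6 with the smallest p and the 3 with the largest difference towards stroma in each subunit, members whose probe sets disagree, and stalk proteins, paralogs and misplaced names by role. Other members are named as examples of spread or of dim signal after their values were seen. In other lists it names genes past the threshold, or else the 2 with the smallest p. Members and lists were chosen with earlier results of these data known. Alternatives were other blocks, priors, filters and normalizations, each cow left out, and the mean of a gene's probe sets. The fit was tested on simulated data. With 6 cows, the number of arrays limits the precision. With cow as a block, the p-values rest in part on how the difference between stroma and epithelium varied among these animals. They rest also on the prior, a variance shared by all tested probe sets, towards which limma draws that of each probe set. The same holds for the SE of a difference. Variation from capture and amplification is part of the spread among animals and cannot be separated from it here.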

Additional observations from a re-analysis of the deposited data

Results flagged for a closer look

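Among 50 groups of 6 values checked for a sample far from the others (each named member, and the mean levels of the lists, in each tissue), 1 stood apart, whereas chance marks about 1 group in 20. MRPS26, a small subunit protein, was at 3.55 in the stroma of cow 5, and its other stromal values ran from 5.32 to 5.99. The added control RNA of that array was 10.99, the highest of the 12 arrays, and its part in the value was not tested.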

How the results depend on the processing

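The block for cow decided 1 call: without the replicate block, and with cow as a random effect, the small subunit had 0 genes called towards epithelium in place of 1, while the 2 of the large subunit stayed. The large subunit had 1 call with an intensity trend and robust prior, with the brightest 5000 probe sets and after centring, and 0 without a filter and with probe sets above the median on at least 8 arrays. The small subunit had 2 calls with the trend and when probe sets were averaged per gene, and 0 with the brightest 5000, after a further quantile normalization and after centring. Leaving out each cow gave 0 to 1 calls in either subunit. With cows 1 to 3 alone, chosen after seeing the data, both subunits had 0. Calls towards stroma were 0 in every setting. Over all genes, leaving out a cow gave 118 to 189 calls towards epithelium (118 without cow 1, 132 without cow 2, 133 without cow 4, 152 without cow 6; 238 with all), cows 1 to 3 alone gave 38 and 115 in epithelium and stroma, and the brightest 5000 gave 123 in stroma. After centring, the assembly factors had a median of 0.21, the medians of the ribosomal proteins with other symbols and of the translation factors turned to 0.10 and 0.15, and the synthetases and the respiratory chain had 0 calls. The medians of both subunits kept their sign in every setting, between -0.67 (brightest 5000) and -0.35 (centring) for the large and -0.63 (cows 1 to 3) and -0.13 (no filter) for the small subunit. Signs turned when a cow was left out for MRPL12 (-0.061 to 0.26, below 0 without cow 3), MRPL20 (-0.13 to 1.26, below 0 without cow 5), MRPL43 (-0.073 to 0.70, below 0 without cow 3), MRPL51 (-0.29 to 0.54, below 0 without cow 2 or 3), MRPS18A (-0.82 to 0.078, above 0 without cow 3 or 5) and MRPS30 (-0.44 to 0.58, below 0 without cow 4 or 6), and in cows 1 to 3 for MRPL20 (-0.28) and MRPS30 (-1.12). Of the named members' values under the alternatives, 292 kept direction and side of the threshold, 30 fell short of it, 4 newly passed it and 11 changed sign. Signal over background limits the folds of dim members. The cause was not tested, except that fewer cows or probe sets were fitted where they were left out.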
